A study of Mus musculus with 9 samples.

Results

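The genes described are 10 markers used to tell adipocyte lineages apart, chosen by name from their use in the field. No cut-off on their values here was used, but earlier results of these data were known at that time. They are the beige adipocyte markers Tbx1, Tmem26, Tnfrsf9 and Cited1, the classical brown adipocyte markers Zic1, Lhx8 and Epsti1, and the subcutaneous white depot markers Hoxc8, Hoxc9 and Hoxc10. They are 10 of the 30142 mouse genes that rows of the array name with 1 symbol, and each has 1 row. A gene was tested in the main fit where its mean over the arrays reached 5.31 on the log2 scale, which is the median of all row means. In all, 16639 genes and 8 of the 10 markers passed this filter, while Cited1, with a mean of 4.65, and Zic1, with a mean of 5.07, did not.

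RNA of the whole inguinal white fat pad, which lies under the skin of the groin, was measured on 9 Affymetrix MTA-1_0 arrays, 3 in each of 3 groups. Control mice carried the transgenes Adiponectin-rtTA and TRE-Cre with Zfp423+/+, and knockout mice carried Adiponectin-rtTA and Tre-CRE with Zfp423loxP/loxP. The adiponectin promoter thus drives the doxycycline-dependent activator, and with it Cre, in adipocytes, and Zfp423, a transcription factor that maintains the white state of these cells, keeps intact alleles in the other cells of the pad. All 3 groups were on doxycycline chow from 8 weeks of age for 28 days, also the controls, so that every group carried both transgenes and was exposed to the drug. One control group and the knockouts stayed at room temperature, and another control group spent the last 14 days at 6 °C, a stimulus under which beige adipocytes form. These groups are called control, knockout and cold here, and no group combined knockout with cold. The labels do not say whether each array came from a separate mouse or from pooled tissue, so that the spread between arrays may in part be technical.

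Several kinds of fat cells are told apart by such markers. Classical brown adipocytes arise in the embryo from cells related to muscle precursors, beige adipocytes appear within white depots on cold exposure, and white adipocytes store lipid. Beige and brown cells share the heat-producing programme around Ucp1, the uncoupling protein of the inner mitochondrial membrane, and the identity markers were proposed because they were found to separate cells that share it. HoxC genes encode homeobox transcription factors that record position along the body axis and mark subcutaneous against interscapular fat.

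The arrays and their labels were checked first. Zfp423 read 7.56, 8.15 and 8.04 in the knockout arrays and 8.74, 8.22 and 8.40 in the controls, which did not overlap, but the difference of -0.53 ± 0.20 (SE) did not pass the test (limma adjusted p = 0.254). Which exons the Zfp423 row covers relative to the floxed part was not analysed here. Of 12 general adipocyte genes, the mean level per array was 16.20 to 16.50 in control, 15.77 to 16.51 in knockout and 16.54 to 16.64 in cold. For most genes, the value of 1 array per group fell between those of the remaining 2. It was control replicate 3 for 67.7% of the 12967 genes whose 3 control values differ, knockout replicate 3 for 74.0% of 13948 such genes and cold replicate 2 for 53.1% of 13174. A spread computed with such arrays is smaller than the spread of the outer pair, and values without these 3 arrays are given at the end. The knockout and cold differences below are taken against the same 3 control arrays and are therefore not independent of each other.

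None of the 10 markers passed the test in any of the 3 comparisons. In knockout minus control 0 of 10 passed, beside 0.379% of the 16639 tested genes. In cold minus control 0 of 10 passed, beside 1.56%, and in cold minus knockout 0 of 10, beside 2.42%. In the fit on all 30142 named genes, from which the values of Cited1 and Zic1 come, these shares were 0.0531%, 0.435% and 0.723%. In the F test over the 3 groups together 0 of 10 passed, beside 2.68% of the tested genes. The smallest adjusted p of that test were 0.164 for Epsti1, 0.174 for Tnfrsf9 and 0.228 for Hoxc8. Tnfrsf9 passed the filter only through its knockout readings, so its p values in this paragraph are not independent of the filter. At an unadjusted p under 0.05, 0 markers stood in knockout minus control, 0 in cold minus control and 3 in cold minus knockout, namely Epsti1, Tnfrsf9 and Hoxc8, beside 16.3%, 20.4% and 26.9% of the tested genes. With 3 arrays against 3 the exact two-sided permutation test of a single gene cannot give a p below 0.1.

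**Figure D1:**
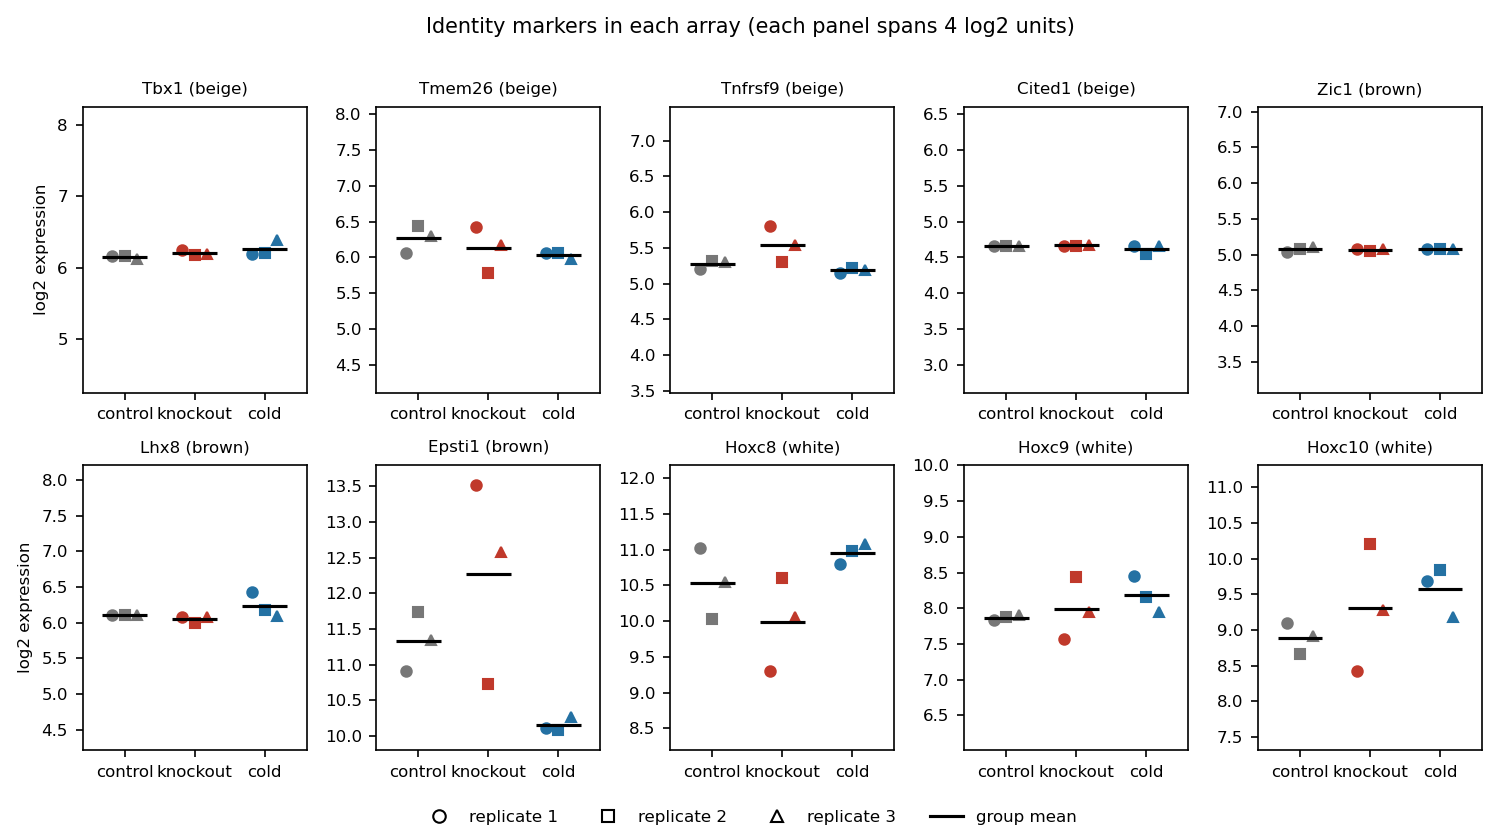
Log2 expression (vertical axis, each panel spanning 4 units) of the 10 markers in each of the 9 arrays, by group; points are single arrays and bars the group means. Epsti1 spreads over 3.44 units, while Zic1 stays within 0.07 units.

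The groups of arrays separated without overlap for 2 of 10 markers in knockout minus control (Tbx1 higher, Lhx8 lower), for 4 in cold minus control (Tbx1, Hoxc9 and Hoxc10 higher, Epsti1 lower) and for 4 in cold minus knockout (Lhx8 and Hoxc8 higher, Epsti1 and Tnfrsf9 lower). The background for such separation was 17.4%, 32.9% and 32.5% of the tested genes, and 11.8%, 21.6% and 21.5% of all named genes, so the markers lie near it. The median difference of the 10 markers was 0.03 in knockout minus control, 0.06 in cold minus control and 0.03 in cold minus knockout, beside 0.02, -0.02 and -0.03 over all tested genes.

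The markers differed in how far they varied between arrays. The range over the 9 arrays was 3.44 log2 units for Epsti1, wider than for 99.2% of the tested genes. For Hoxc8 and for Hoxc10 it was 1.78 units, each wider than for 93.2%. It was 0.88 for Hoxc9, 0.67 for Tmem26, 0.66 for Tnfrsf9, 0.44 for Lhx8 and 0.27 for Tbx1, and only 0.13 for Cited1 and 0.07 for Zic1. For Cited1 and for Zic1, 6 of the 9 arrays held 1 identical value, as did at least 6 arrays for 15.7% of all named genes, and 3 arrays did for Lhx8. The 23 background control rows of the array had row means from 2.37 to 6.28, with a median of 3.43. The row means of Tbx1, Tmem26, Tnfrsf9, Cited1, Zic1 and Lhx8 lie within that span, and the values carry no detection call.

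The promoter windows of Epsti1 and Tnfrsf9 are shown because these markers had their highest readings in the same 2 arrays, as described further on. Windows of 250 bases before a start site from RefSeq (GRCm38.p6) were matched for 7 of the 10 markers, with 11 windows; Hoxc8, Hoxc9 and Hoxc10 were not matched. Epsti1 has 1 window, chr14:77903989-77904238 on the plus strand, and Tnfrsf9 has 2, the first at chr4:150919905-150920154 and the second at chr4:150927749-150927998, both on the plus strand. Capitals mark matches, on either strand, to the gamma-activated site TTCNNNGAA, which STAT proteins bind, and to the NF-kappa-B consensus.
Epsti1: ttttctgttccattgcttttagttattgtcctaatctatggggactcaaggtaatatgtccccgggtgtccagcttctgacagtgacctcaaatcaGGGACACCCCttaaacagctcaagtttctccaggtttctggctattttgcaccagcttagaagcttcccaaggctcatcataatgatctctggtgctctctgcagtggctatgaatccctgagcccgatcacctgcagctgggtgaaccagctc
Tnfrsf9, first start: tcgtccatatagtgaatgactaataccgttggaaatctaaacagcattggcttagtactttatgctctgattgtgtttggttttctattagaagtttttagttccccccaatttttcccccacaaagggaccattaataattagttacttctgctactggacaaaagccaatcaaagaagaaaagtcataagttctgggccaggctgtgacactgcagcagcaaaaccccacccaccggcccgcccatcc
Tnfrsf9, second start: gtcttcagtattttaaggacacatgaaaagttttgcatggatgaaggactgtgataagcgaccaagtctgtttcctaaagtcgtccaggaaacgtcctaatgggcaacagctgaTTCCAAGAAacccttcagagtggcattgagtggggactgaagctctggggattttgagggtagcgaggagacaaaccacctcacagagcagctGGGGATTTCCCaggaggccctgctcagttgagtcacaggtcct

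The Epsti1 window holds 1 NF-kappa-B match, GGGACACCCC, that begins at -154, where -1 is the last base before the start. The window of the second Tnfrsf9 start holds the gamma-activated match TTCCAAGAA at -136 and 2 NF-kappa-B matches at -43 and -42 that overlap each other, and the window of its first start holds no match. Of all 32851 windows of this length, 7.02% hold the gamma-activated match and 7.25% the NF-kappa-B match. The core of the interferon-stimulated response element is in 2.98% of all windows and in 0 of the 11 marker windows. A TATA box (TATAAA) and an early B cell factor site (CCCNNGGG) were also searched, and are in 12.4% and 11.8% of all windows. The Epsti1 and Tnfrsf9 windows hold neither. Windows of Cited1 hold TATA matches at -13 and -115 and an early B cell factor match at -141, and that of Tmem26 holds one at -215. The Epsti1 window holds 2 CpG and each Tnfrsf9 window 4, beside a median of 6 over all windows. At the other end stand Zic1 with 27 CpG in its window and the last of the 3 Cited1 windows with 30. These matches describe letters in these windows and say nothing of binding.

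Among the beige markers, Tnfrsf9, also called 4-1BB or CD137 and known as a costimulatory receptor of activated T cells, had its highest readings in knockout arrays. It read 5.21, 5.31 and 5.30 in control, 5.80, 5.30 and 5.54 in knockout, and 5.15, 5.22 and 5.20 in cold. Knockout replicates 1 and 3 stood above all other arrays, and knockout replicate 2 lay among the controls. The knockout mean was 0.27 ± 0.12 (SE) above control (adjusted p = 0.309), a value that was 0.14 without knockout replicate 1 and 0.40 without knockout replicate 2. The cold mean was -0.09 ± 0.12 from control (adjusted p = 0.707). Cold stood below knockout by a difference of -0.36 ± 0.12, with a 95% interval of -0.63 to -0.08 and no overlap of the arrays, at an adjusted p of 0.116. Tnfrsf9 passed the filter of 5.31 narrowly, with a row mean of 5.34. Only its knockout mean, 5.55, lay above the filter, while control was at 5.27 and cold at 5.19. Its comparisons with knockout in the main fit are therefore not independent of the filter. In whole-tissue RNA fewer cells of a type and less RNA per cell cannot be told apart.

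Tmem26, a transmembrane protein used to sort beige cells by their surface, had means in knockout and cold that lay below the control mean. Its values were 6.06, 6.44 and 6.30 in control, 6.42, 5.77 and 6.18 in knockout, and 6.06, 6.05 and 5.97 in cold. The 3 groups overlap, and the knockout arrays span the lowest reading and one of the highest. The knockout difference from control was -0.14 ± 0.17 (adjusted p = 0.713) and the cold difference -0.24 ± 0.17 (adjusted p = 0.443), with 95% intervals of -0.54 to 0.25 and -0.63 to 0.16. The cold difference was -0.15 without control replicate 2.

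Tbx1, a T-box transcription factor, was a little higher in both groups than in control. It read 6.16, 6.17 and 6.12 in control, 6.24, 6.18 and 6.19 in knockout, and 6.19, 6.20 and 6.39 in cold. No knockout or cold array overlapped the controls, and cold replicate 3 stood apart above the rest. The separation of knockout was narrow, with 6.175 in knockout replicate 2 beside 6.169 in control replicate 2. The medians of all rows in those 2 arrays were 5.28 and 5.32. The differences were 0.05 ± 0.06 (adjusted p = 0.698) for knockout and 0.11 ± 0.06 (adjusted p = 0.334) for cold. The cold value was 0.04 without cold replicate 3.

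Cited1, a transcriptional coregulator, gave almost no variation to compare. Its value was 4.66 in all 3 controls, 4.66, 4.66 and 4.67 in knockout, and 4.66, 4.55 and 4.66 in cold. The single reading that stands apart is the lower one of cold replicate 2. The differences from control were 0.0050 ± 0.034 for knockout (adjusted p = 1) and -0.04 ± 0.03 for cold (adjusted p = 0.635), in the fit on all named genes. Near the low end of the scale such values do not show whether the transcript is present.

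Among the classical brown markers, Zic1, a zinc finger transcription factor of the neural tube and somites and the most widely used brown marker, was as flat as Cited1. It read 5.04, 5.08 and 5.10 in control, 5.08, 5.05 and 5.08 in knockout, and 5.08 in all 3 cold arrays. Its differences from control were -0.0029 ± 0.023 in knockout (adjusted p = 1) and 0.0046 ± 0.023 in cold (adjusted p = 0.963), with 95% intervals of -0.06 to 0.05 and -0.05 to 0.06. Of its relatives, Zic2, Zic4 and Zic5 had row means of 4.35, 4.15 and 4.23 and also lay below the filter.

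Lhx8, a LIM homeodomain transcription factor, read 6.10 in all 3 controls, 6.08, 5.99 and 6.08 in knockout, and 6.43, 6.18 and 6.10 in cold. All knockout arrays were slightly below the controls, and cold replicate 1 was the highest reading. The difference from control was -0.05 ± 0.08 in knockout (adjusted p = 0.811) and 0.13 ± 0.08 in cold (adjusted p = 0.393). The cold value was 0.03 without cold replicate 1 and 0.20 without cold replicate 3. Cold and knockout did not overlap, with a difference of 0.18 ± 0.08 (adjusted p = 0.211) that was 0.08 without cold replicate 1. The 3 controls held the identical value, so their spread of 0 is no measure of the variation between animals.

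Epsti1, an interferon-inducible gene that immune cells also express, varied more than any of the other 9 markers, and its knockout and cold means lay on opposite sides of the control mean. It read 10.92, 11.74 and 11.35 in control, 13.52, 10.73 and 12.58 in knockout, and 10.11, 10.08 and 10.26 in cold. All cold arrays lay below all others, while the knockout arrays held both the highest readings and a value below every control. The knockout mean was 0.94 ± 0.64 above control (95% interval -0.56 to 2.44, adjusted p = 0.511), and this value was 0.32 without knockout replicate 1 and 1.72 without knockout replicate 2. The cold difference from control was -1.18 ± 0.64 (95% interval -2.68 to 0.32, adjusted p = 0.33). This SE is pooled over the 3 groups, whose SDs differed: 0.41 in control, 1.42 in knockout and 0.10 in cold. It is therefore not the spread of the cold and control arrays alone. Fitted on only those 2 groups, the difference had a limma adjusted p of 0.0419.

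Cold against knockout gave the largest difference of any marker, with Epsti1 4.35-fold lower in cold. On the log2 scale this was -2.12 ± 0.64, with a 95% interval of -3.62 to -0.62, no overlap of the arrays and an adjusted p of 0.0992. Without knockout replicate 2 the difference was -2.90 and passed the test (adjusted p = 0.0128), as did that of Tnfrsf9, at -0.48 (adjusted p = 0.0204), in a fit in which 2703 of 16639 genes passed. Without knockout replicate 1 it was -1.50 for Epsti1 and -0.23 for Tnfrsf9, and neither passed (adjusted p = 0.181 and 0.171). For both markers knockout replicate 2 held the knockout reading nearest to cold, so leaving it out widens the difference. Tnfrsf9 passed the filter only through its knockout readings, so its p values here are not independent of the filter. Over the alternatives tried, other than array weights, the adjusted p of cold minus knockout ran from 0.0128 to 0.667 for Epsti1 and from 0.0204 to 0.667 for Tnfrsf9.

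**Figure D2:**
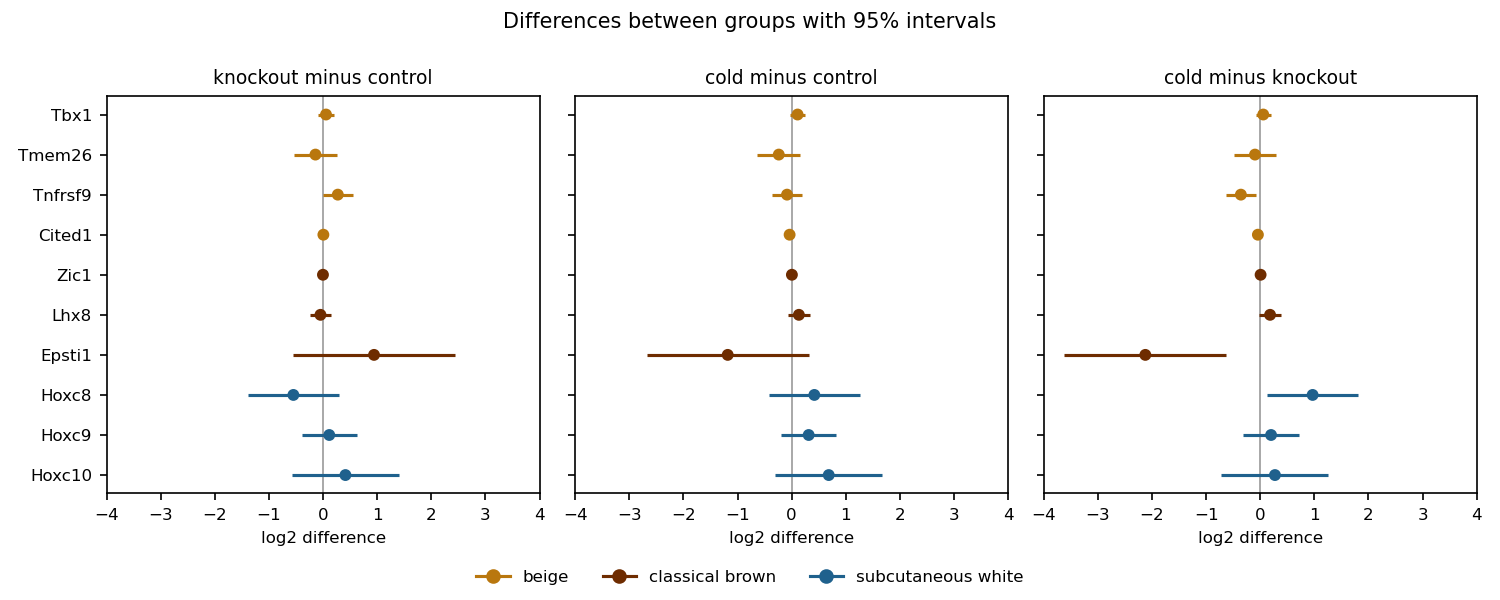
Log2 difference (horizontal axis) of each marker in the 3 comparisons; points are fitted differences and lines their 95% intervals from the limma fit. The interval leaves out 0 for Tnfrsf9, Epsti1 and Hoxc8 in cold minus knockout, before adjustment over all genes.

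The subcutaneous white markers were not lower in the cold, and all 3 had a higher mean there than in control and in knockout. Hoxc8 read 11.03, 10.04 and 10.55 in control, 9.30, 10.60 and 10.06 in knockout, and 10.80, 10.99 and 11.08 in cold. Knockout replicate 1 was the lowest array, and the cold arrays were close together at the upper end. The knockout difference from control was -0.55 ± 0.36 (adjusted p = 0.494), and it was -0.21 without knockout replicate 1 and -0.86 without knockout replicate 2. The cold difference was 0.42 ± 0.36 (adjusted p = 0.528), and it was 0.17 without control replicate 2 and 0.66 without control replicate 1. Cold stood 1.96-fold above knockout without overlap, a difference of 0.97 ± 0.36 with a 95% interval of 0.13 to 1.81 (adjusted p = 0.146), and the difference was 0.63 without knockout replicate 1.

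Hoxc9 read 7.84, 7.87 and 7.90 in control, 7.57, 8.43 and 7.95 in knockout, and 8.45, 8.15 and 7.95 in cold. The cold arrays lay above the controls, and the knockout arrays lay on both sides of them. The differences from control were 0.11 ± 0.22 in knockout (adjusted p = 0.833) and 0.31 ± 0.22 in cold (adjusted p = 0.434), the latter 0.18 without cold replicate 1. Cold minus knockout was 0.20 ± 0.22 (adjusted p = 0.578).

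Hoxc10, which lies next to Hoxc9 in the same gene cluster, read 9.09, 8.66 and 8.91 in control, 8.43, 10.20 and 9.28 in knockout, and 9.69, 9.85 and 9.19 in cold. Its highest and its lowest reading were both in knockout, in replicates 2 and 1, and the cold arrays all exceeded the controls. The differences from control were 0.41 ± 0.42 in knockout (adjusted p = 0.668) and 0.69 ± 0.42 in cold (adjusted p = 0.383). The knockout value was 0.85 without replicate 1 and -0.04 without replicate 2 of that group. Cold minus knockout was 0.27 ± 0.42 (adjusted p = 0.706).

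Several markers followed a common order of arrays within the knockout group, and levels of immune markers followed it too. Knockout replicate 1 was the highest of the 9 arrays for Epsti1 and Tnfrsf9 and the lowest for Hoxc8 and Hoxc9, and knockout replicate 2 was the opposite extreme of its group for all of these. Across the 9 arrays Pearson's r was 0.946 between Epsti1 and Tnfrsf9, -0.936 between Epsti1 and Hoxc8, and 0.909 between Hoxc9 and Hoxc10, given as a description, since the arrays share group, dissection and the scaling of each array. Hoxc8 was less like its neighbours, with r of 0.54 to Hoxc9 and 0.602 to Hoxc10.

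The list of T cell genes was set beside Epsti1 and Tnfrsf9. It has 17 genes, of which 14 have a row and all 14 of these passed the filter. Their mean level per array was 8.62 to 9.23 in control, 8.71 to 10.31 in knockout and 8.06 to 8.09 in cold. Relative to the control mean it was 1.41, -0.20 and 0.79 in knockout replicates 1, 2 and 3, and -0.83, -0.82 and -0.85 in the cold arrays. The signs of the differences were positive for 14 of 14 in knockout, with a median of 0.73, and negative for 14 of 14 in cold, with a median of -0.85; 0 of 14 passed the test in either comparison. The part of T cells in the values of Epsti1 and Tnfrsf9 was not tested.

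The 13 macrophage genes had a mean level of 9.12 to 9.89 in control, 8.47 to 9.88 in knockout and 8.44 to 8.64 in cold. For the 9 B cell genes with a row it was 9.57 to 11.14, 9.46 to 10.88 and 8.63 to 9.69. In cold the sign was negative for 12 of 13 macrophage genes and 9 of 9 B cell genes, with medians of -1.04 and -1.38. In knockout it was negative for 10 of 13 and 9 of 9, with medians of -0.38 and -0.19. In either comparison against control 0 of 13 and 0 of 9 passed. The 18 interferon response genes with a row, the pathway that induces Epsti1, had medians of -0.0006 in knockout and -0.20 in cold, with 0 of 18 passed, and their mean was 0.61, -0.41 and 0.19 from control in knockout replicates 1, 2 and 3. Beside Hoxc8, the 8 endothelial genes had a mean of -0.60, 0.29 and -0.13 from control in those replicates and of 0.49, 0.40 and 0.26 in cold, with 0 of 8 passed. The 12 general adipocyte genes followed the same order. Their mean was -0.60, 0.15 and -0.13 in those knockout replicates and 0.27, 0.26 and 0.18 in cold. Skeletal muscle genes, 12 of which passed the filter, were at -3.84 from control in cold replicate 3, the highest array for Tbx1. Of 17 mammary epithelium genes with a row only Esr1 passed the filter, and the defining keratin and milk genes lay below it. The part of these cell types in the marker values was not tested.

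**Figure D3:**
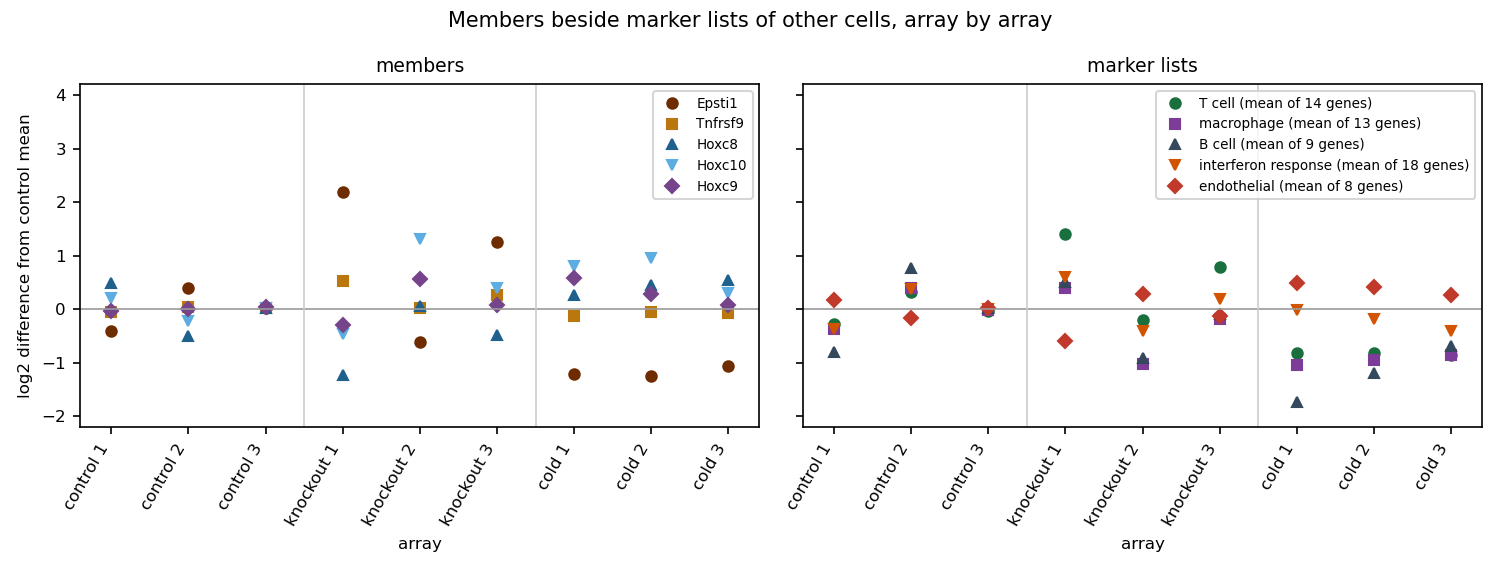
Log2 difference from the control mean (vertical axis) in each array (horizontal axis) for 5 markers on the left and for the mean of 5 marker lists of other cells and states on the right. Epsti1 and the T cell list are both highest in knockout replicate 1, where the T cell list stands at 1.41. Both are below the control mean in all 3 cold arrays, as are the macrophage, B cell and interferon response lists.

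Genes related to the markers were taken from lists in the same way. Of the TNF receptor partners of Tnfrsf9, 6 were tested and 0 passed. All 6 had a positive sign in knockout, with a median of 0.40, and a negative one in cold, with a median of -0.43. Icos, a costimulatory receptor that is also in the T cell list, had the largest differences, 0.86 ± 0.45 in knockout (adjusted p = 0.397) and -0.76 ± 0.45 in cold (adjusted p = 0.37). Traf1, a signalling adaptor of this receptor family, followed with 0.79 ± 0.46 (adjusted p = 0.448) and -0.67 ± 0.46 (adjusted p = 0.43). Tnfsf9, the ligand of Tnfrsf9, lay below the filter with a row mean of 3.90.

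Among 7 other beige markers tested, 0 passed, and the median difference was 0.27 in knockout and 0.04 in cold. P2rx5, an ATP-gated ion channel at the surface of brown and beige adipocytes, came nearest to the threshold in both comparisons. It read 7.78, 8.39 and 8.07 in control, 9.24, 10.15 and 9.67 in knockout, and 9.28, 9.32 and 9.48 in cold, so that both groups stood clear of the controls. Its difference was 1.61 ± 0.24 in knockout (adjusted p = 0.052) and 1.28 ± 0.24 in cold (adjusted p = 0.0554). The cold difference passed after quantile normalization (1.34, adjusted p = 0.0393) but not after median centring (1.30, adjusted p = 0.0522), and quantile normalization moved the list's median in cold to 0.13. Slc36a2, an amino acid transporter also known as PAT2, had differences of 1.24 ± 0.25 (adjusted p = 0.0804) and 0.70 ± 0.25 (adjusted p = 0.186). Sp100, a nuclear body protein, was at -0.75 ± 0.39 in cold (adjusted p = 0.311).

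Of 5 other brown markers tested, 0 passed, with medians of 0.03 in knockout and 0.35 in cold. Oplah, the enzyme 5-oxoprolinase, had differences of 1.51 ± 0.35 in knockout (adjusted p = 0.102) and 0.90 ± 0.35 in cold (adjusted p = 0.218). Mpzl2, an adhesion protein, was 0.64 ± 0.22 above control in knockout (adjusted p = 0.214). Ebf3, a transcription factor of the early B cell factor family, was 0.81 ± 0.28 above control in cold (adjusted p = 0.177).

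The other white and depot markers gave 0 passed of 10 tested, with 9 of 10 at a negative sign in knockout (median -0.57) and 5 of 10 in cold (median 0.0049). Nnat, an imprinted gene, had differences of -1.51 ± 0.89 in knockout (adjusted p = 0.447) and -1.59 ± 0.89 in cold (adjusted p = 0.342). Mest, another imprinted gene whose level follows fat mass expansion, was at -1.18 ± 0.79 in knockout (adjusted p = 0.507). Lep, the adipocyte hormone leptin, was at 1.29 ± 0.74 in cold (adjusted p = 0.352).

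Other Hox genes showed small differences. Of the other HoxC genes, Hoxc4, Hoxc5 and Hoxc6 passed the filter, and Hoxc11, Hoxc12 and Hoxc13 did not. All 3 tested genes had a positive sign in cold, with a median of 0.18, led by Hoxc6 with 0.34 ± 0.15 (adjusted p = 0.25) and Hoxc5 with 0.18 ± 0.22 (adjusted p = 0.673). The mean of the 3 genes from control was 0.40, 0.15 and 0.07 in cold replicates 1, 2 and 3. In knockout Hoxc5 was at -0.08 ± 0.22 (adjusted p = 0.885) and Hoxc4 at 0.03 ± 0.07 (adjusted p = 0.888). Outside the HoxC cluster, 13 Hox genes were tested and 0 passed. In cold all 13 had a positive sign, with a median of 0.08, and all 13 signs stayed positive after quantile normalization and after median centring of the arrays. The shift was uneven, since their mean from control was 0.21, 0.06 and 0.0003 in cold replicates 1, 2 and 3. Some of these rows hardly vary, such as Hoxb3 with 1 identical value on 8 arrays. The largest differences in cold were those of Hoxa4 at 0.31 ± 0.08 (adjusted p = 0.103) and Hoxa10 at 0.23 ± 0.08 (adjusted p = 0.205). In knockout 3 were positive and 9 negative, a split that became 6 and 7 after quantile normalization and 5 and 8 after median centring. Hoxa3 at -0.25 ± 0.12 (adjusted p = 0.361) and Hoxb6 at -0.18 ± 0.09 (adjusted p = 0.362) had the largest differences there.

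The families of Tbx1 and Cited1 were also measured. Of 6 other T-box genes tested, 0 passed. The largest differences were those of Tbx5 at 0.33 ± 0.18 (adjusted p = 0.335) and Tbx3 at 0.33 ± 0.13 (adjusted p = 0.231) in cold, and of Tbx3 at 0.17 ± 0.13 (adjusted p = 0.581) and Tbx15 at -0.08 ± 0.19 (adjusted p = 0.876) in knockout. Cited2, a paralogue of Cited1, read 11.80, 10.99 and 11.36 in control, 10.24, 9.98 and 10.19 in knockout, and 10.76, 10.70 and 11.00 in cold. The knockout arrays lay below all controls, with a difference of -1.25 ± 0.20 (adjusted p = 0.0575). The cold difference was -0.56 ± 0.20 (adjusted p = 0.189), and Cited4 lay below the filter.

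The identity markers were measured beside a thermogenic list that changed in both groups. Of its 14 tested genes, 8 rose in knockout and 8 in cold, and 0 fell, with medians of 3.46 and 2.72, while 0.234% and 1.36% of all tested genes rose. Fabp3, a fatty acid carrier, rose by 7.54 ± 0.94 (adjusted p = 0.0369) and 6.97 ± 0.94 (adjusted p = 0.0215), Ucp1 by 6.90 ± 0.47 (adjusted p = 0.00855) and 6.61 ± 0.47 (adjusted p = 0.00224). The third gene named in knockout is Cpt1b, the carnitine palmitoyltransferase of muscle and brown fat, which rose by 4.87 ± 0.51 (adjusted p = 0.0272), and in cold Elovl3, a fatty acid elongase, by 6.61 ± 1.00 (adjusted p = 0.0311). The beige, brown and white marker differences from control all lay between -1.18 and 0.94.

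**Figure D4:**
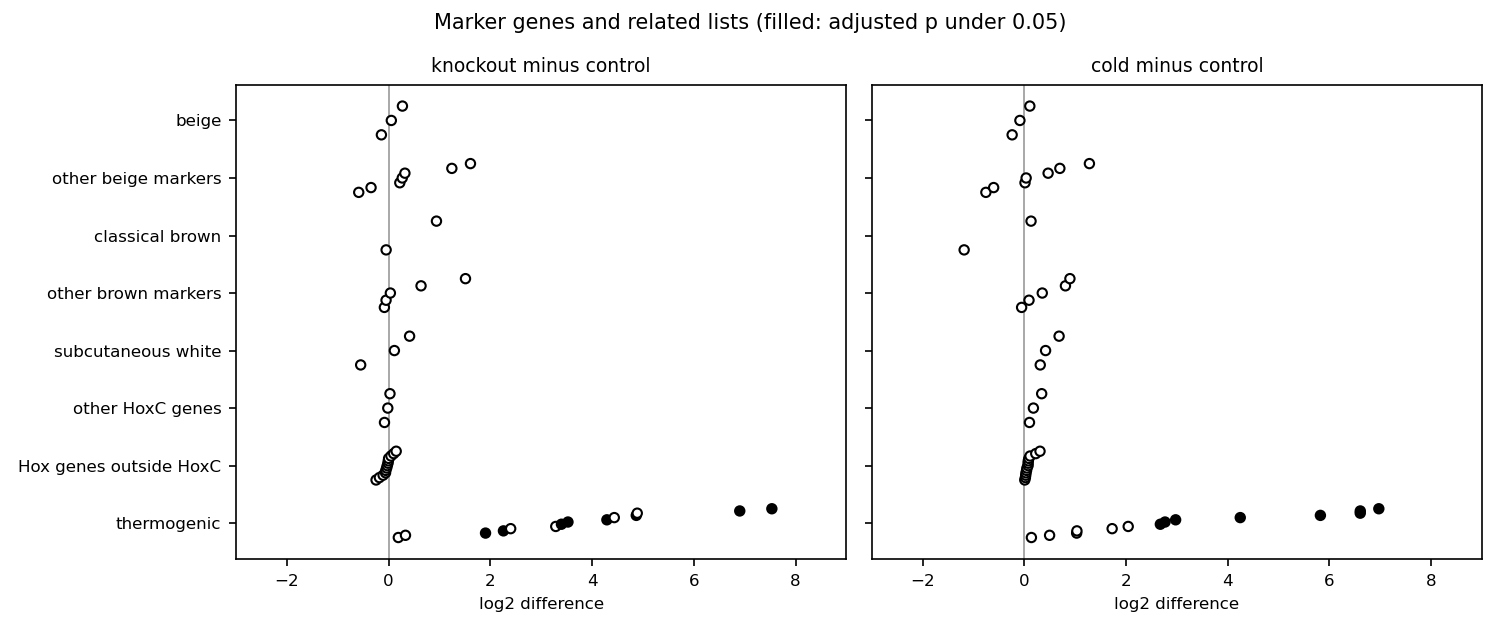
Log2 difference from control (horizontal axis) in knockout and in cold for tested genes of the 3 marker classes and of 5 related or reference lists; each point is 1 gene and filled points passed an adjusted p of 0.05. Filled points occur in the thermogenic list, with 8 genes in each panel.

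For each marker that passed the filter, the 3 genes whose values over the 9 arrays were most like its own by Pearson's r were taken from all tested genes, as a description. Epsti1 was most like Hpse, a heparan sulfate-cleaving enzyme (r = 0.997), Abcg3 (0.996) and Lcp2, an adaptor of T cell receptor signalling (0.995). Tnfrsf9 was most like Tbc1d8 (0.994), Trpm2, a calcium-permeable channel of immune cells (0.991), and Nsg2 (0.991). Hoxc8 was most like the kinase gene Hipk2 (0.989), Atl3 (0.989) and Flt1, an endothelial receptor for vascular growth factors that is also in the endothelial list (0.987). Hoxc9 was most like Tm4sf1 (0.99), Ak1 (0.98) and Fxr1 (0.975), and Hoxc10 most like Cops5 (0.98), Cpeb3 (0.973) and Larp1b (0.97). For Tmem26 these were Mthfsl (0.978), Ly6e (0.976) and Tasor (0.975), for Lhx8 Tmem67 (0.974), Ppp4r4 (0.964) and Cd109 (0.951), and for Tbx1 Stard10 (0.956), Trub1 (0.952) and Mllt1 (0.95). With 9 arrays in 3 groups and 16639 genes to choose from, these values carry no test and were chosen as the highest.

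Without control replicate 3, knockout replicate 3 and cold replicate 2, the differences of the 3 markers with an unadjusted p under 0.05 in cold minus knockout were of similar size. Cold minus knockout was -1.94 for Epsti1, -0.38 for Tnfrsf9 and 0.99 for Hoxc8, each with an adjusted p of 0.667. In knockout minus control they were 0.80, 0.29 and -0.58, each with an adjusted p of 0.948. Hoxc10, with as wide a range as Hoxc8, was at 0.12 in cold minus knockout (adjusted p = 0.963) and at 0.44 in knockout minus control (adjusted p = 0.955). In that fit 0 genes passed in any comparison, and 682, 781 and 965 genes had an unadjusted p under 0.05 in limma for knockout minus control, cold minus control and cold minus knockout. Leaving out arrays because they lie between widens the spread within groups by itself, so the loss of passing genes follows in part from the choice.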

How the data were processed

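Total RNA was hybridised with biotin label, 1 array per sample, per the labels' protocols. The authors deposited log2 values for 72688 rows, made with Affymetrix Expression Console per the submitters' processing notes; version, summarisation and build: not given in the sources used here; the log2 scale was read from the values (1.84 to 19.93). Rows were named through the platform annotation (30604 rows with 1 symbol used, 2146 with several left out), with 827 symbols updated through Entrez IDs of the GRCm38.p6 gene table. The brightest row per gene was kept. All 9 arrays entered 1 model of 3 group means (limma 3.58.1 under R 4.3.3, lmFit and eBayes; 6 residual and 1.23 prior degrees of freedom), tested two-sided, with Benjamini-Hochberg adjustment over 16639 genes (or 30142 for Cited1 and Zic1) and a threshold of 0.05; errors are standard errors of this fit. These errors pool the spread of all 3 groups, so a comparison of 2 groups also carries the spread of the group outside it. The number of arrays limits the precision.

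The markers, gene lists, tests and rule for named genes were chosen with earlier results of these data known. Named are the 10 markers, of each related list the 3 genes with the largest change among those that passed, or else the 2 with the largest difference in a comparison against control, and the 3 genes most like each marker by Pearson's r, leaving out predicted symbols. Genes below the filter (Tnfsf9, Cited4, Zic and HoxC relatives), Esr1, Zfp423, S100b, Mbp and Sox10 are named outside this rule, after their values were seen. Samples were grouped by genotype and temperature labels. Deviations from group means were correlated between arrays of equal replicate number. For replicates 1, 2 and 3 this gave -0.461, -0.462 and 0.0208 for knockout against control. It gave 0.0416, 0.0531 and 0.00558 for cold against control, and -0.24, 0.0232 and 0.0863 for cold against knockout. Arrays of unlike number were not correlated for reference, so these values cannot decide on pairing. The numbers were not taken as pairs. The scripts were tested on simulated data. Alternatives were no filter, a stricter filter, array weights, other scalings, 2-group fits, a replicate block, trend and robust settings, the mean of a gene's rows, and arrays left out.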

Additional observations from a re-analysis of the deposited data

How the results depend on the processing

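The 30 differences of single markers were recomputed under 19 alternatives. Of these 570 values, 531 kept their direction and their side of the threshold, 22 newly passed it, 19 of them with array weights, and 17 were counted as turned in sign, among them a Cited1 value of 0. None of the 30 passed in the main fit, so keeping the side meant not passing. Fits with fewer arrays can bring that about by themselves, so the 531 does not measure stability. Array weights, whose estimation did not reach its convergence tolerance, gave 6, 6 and 7 markers past the threshold in knockout minus control, cold minus control and cold minus knockout and 7 in the F test, beside 11755, 8946 and 9904 genes. With only the 2 groups compared, 1 marker passed in cold minus control (Epsti1, limma adjusted p = 0.0419, from 0.000933 to 0.814 over its alternatives), and the genes past the threshold were 0 for knockout minus control and 1347 for cold minus control. The main counts of 63, 260 and 402 genes became 16, 131 and 218 without the filter. A stricter filter gave 144 and 705 genes in knockout minus control and cold minus knockout. Trend and robust settings gave 37 in knockout minus control. Without the 3 arrays that lie between the others, 0 genes passed in each comparison. These arrays were left out because they lie between, which by itself widens the spread within groups and leaves fewer arrays. Leaving out 1 array at a time, the genes past the threshold ran from 0 to 834, from 23 to 983 and from 14 to 2703 in the same order; the highest counts come from leaving out knockout replicate 1 in the first comparison and knockout replicate 2 in the others, and the lowest from leaving out knockout replicate 3 or cold replicate 2, cold replicate 2, and knockout replicate 3. Markers past the threshold ran from 0 to 2 in cold minus knockout and in the F test, with the 2 (Epsti1 and Tnfrsf9) reached without knockout replicate 2, and stayed at 0 in both comparisons against control. Tnfrsf9 passed the filter only through its knockout readings.

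The replicate block, which pairs equal replicate numbers, left 0 markers and 1, 42 and 36 genes past the threshold. The deviations of same-numbered arrays do not settle whether these belong together, and this was not taken as a paired design.

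The turned signs were those of Zic1, Cited1, Tmem26, Hoxc9, Hoxc10 and Tbx1. Zic1 was at -0.0203 in cold minus control with array weights and -0.0128 without control replicate 1. In knockout minus control it was 0.0126 after quantile normalization, 0.0084 after median centring, 0.0085 without the 3 arrays, 0.0122 without control replicate 3 and 0.0046 without knockout replicate 2. Cited1 in cold minus control was 0.0029 without the 3 arrays and 0.0020 without cold replicate 2. In cold minus knockout Cited1 was 0 without the 3 arrays, which was counted as turned although it did not become positive. Leaving out 1 array at a time, Zic1 reached 0.0197 and Cited1 -0.0574 at the other end in cold minus control. Over the arrays left out, cold minus knockout ran from -0.2716 (without knockout replicate 2) to 0.0525 (without knockout replicate 1) for Tmem26, and, between the same arrays in the opposite order, from -0.0060 to 0.4257 for Hoxc9 and from -0.1654 to 0.723 for Hoxc10. Knockout minus control ran from -0.2904 (without knockout replicate 1) to 0.0337 (without knockout replicate 2) for Tmem26, and in the opposite order from -0.1110 to 0.3206 for Hoxc9 and from -0.0377 to 0.8506 for Hoxc10. Tbx1 in cold minus knockout ran from -0.0089 without cold replicate 3 to 0.0923 without cold replicate 1. The cause of these changes was not tested. Row means within the span of the background rows limit what the rows of Tbx1, Tmem26, Tnfrsf9, Cited1, Zic1 and Lhx8 can show.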

Other observations

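Among 5 tested genes of a Schwann cell and nerve list, measured beside the identity markers, 1 passed the test in cold minus control under each of 3 scalings. Of all tested genes, 1.56% passed in that comparison in the values as deposited. The genes named here were chosen after their values were seen. S100b, a calcium-binding protein of glia that thermogenic adipocytes also make, rose by 2.65 ± 0.32 (SE) on the log2 scale (limma adjusted p = 0.0149; 0.0106 after quantile normalization and 0.0139 after median centring). It read 6.59, 6.83 and 7.01 in control and 7.67, 8.66 and 8.22 in knockout, and its lowest cold reading was 8.95, so the 3 groups did not overlap. Groups did not overlap for 17.4% of all tested genes in knockout minus control, 32.9% in cold minus control and 32.5% in cold minus knockout. Mbp, a myelin protein gene with other transcripts in immune cells, was at -0.41 ± 0.07 and passed in the values as deposited (adjusted p = 0.0391), but not after quantile normalization (-0.35, adjusted p = 0.0836) or median centring (-0.39, adjusted p = 0.0606). It read 8.52, 8.26 and 8.31 in control and 7.93, 7.99 and 7.93 in cold. Sox10, the defining transcription factor of Schwann cells, was at 0.03 ± 0.03 (adjusted p = 0.59). In knockout minus control 0 of the 5 passed, with S100b at 1.37 ± 0.32 (adjusted p = 0.106).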
